A study of Rattus norvegicus with 7 samples.

Results

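Cldn16-positive thick ascending limb nuclei were the nuclei of the HSRA rat kidney libraries that carried Slc12a1, the gene of the sodium-potassium-chloride cotransporter NKCC2, together with at least 1 transcript of Cldn16, a claudin of the tight junction. There were 499 of them among 30746 nuclei that passed the barcode filter and 37048 barcodes deposited. A barcode was kept when it had at least 200 genes, at most 10000 UMIs (unique molecular identifiers, each taken as 1 transcript molecule) and at most 5% of its UMIs in mitochondrial genes. It was a thick ascending limb (TAL) nucleus when Slc12a1 reached 80 per 10000 UMIs with at least 5 UMIs and when Nos1 and Pappa2, genes of the macula densa, had at most 2 UMIs together. Of the 3989 TAL nuclei, the 499 with a Cldn16 UMI are called Cldn16-positive and the 3490 without one Cldn16-negative.

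The libraries came from single nuclei of archived kidneys of rats 4 weeks old, 3 with 1 kidney and 4 with 2 kidneys. HSRA rats are a line in which some animals are born with a single kidney, and the labels call the 2 kinds of animal HSRA-S and HSRA-C. Both groups were of the same line, no treatment was named, and the tissue was a central slice holding both cortex and medulla in shares that were not given. Each library was taken as 1 animal. A set code in the library names, whose meaning was not given, put all 3 1-kidney libraries and 2 of the 2-kidney libraries in set P1117, and the other 2-kidney libraries (replicates 3 and 4) in set P1117B. That set held no 1-kidney library, so set and group can be told apart only within P1117.

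The thick ascending limb reabsorbs salt through NKCC2 at its luminal face without water following, and the voltage this sets up drives calcium and magnesium between the cells. Claudin-16 and claudin-19 form the paracellular pathway for these divalent cations, while claudin-10b forms one for sodium. In mouse kidney the 2 kinds of junction lie as a mosaic, in which a given cell border carries one or the other. The calcium-sensing receptor (Casr) on the blood side turns the divalent pathway down when calcium is high, and parathyroid hormone acts through Pth1r.

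The values that chose the members are given as a description, without a test. Slc12a1 reached 136.7 ± 18.6 UMIs per 10000 in members of 1-kidney libraries and 152.6 ± 8.96 in members of 2-kidney libraries (SD, n = 3 and 4). Cldn16 stood at 8.50, 4.60 and 6.27 per 10000 in the 1-kidney members and at 5.16, 5.72, 6.27 and 5.48 in the 2-kidney members. Most members carried a single Cldn16 UMI (378), 91 carried 2 and 30 carried 3 or more. At the Slc12a1 bound, 40 members lay between 80 and 90 per 10000, and 41 nuclei with the other features lay between 70 and 80. Casr was at 3.39 per 10000 in those just inside this bound and at 4.82 in those just outside, and Umod was at 9.86 and 8.87. The Nos1 and Pappa2 part mattered little in number, since 458 members had no UMI of either and 10 nuclei were left out for having more than 2. The mitochondrial bound left out 47 nuclei, while 17 members lay between 4% and 5%, and the UMI bound left out 8.

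Genes that the rule did not use placed the members in the thick ascending limb. Umod, which encodes uromodulin, the protein that this segment secretes into urine, was found in 54.6% of members after every nucleus was thinned to 1000 UMIs, against 2.86% of podocyte nuclei (nuclei chosen by podocyte marker genes and little Slc12a1). Casr was found in 39.4% of members and 1.16% of podocytes, and Egf, the gene of the growth factor precursor made in the thick ascending limb and the distal convoluted tubule, in 20.8% and 0.688%. Cldn19, the partner of Cldn16, was nearly absent: 14 UMIs in all members and 99 in all Cldn16-negative TAL nuclei, or 0.165 per 10000 in the Cldn16-negative nuclei. Cldn14, a claudin known to block the Cldn16 pathway, and Cldn3 had 0 UMIs in members and 2 and 5 UMIs in Cldn16-negative nuclei. The pairing of Cldn16 with Cldn19 could therefore not be examined at this depth. Markers of other cell types were also present. The proximal tubule list had all 20 of its measured genes above 0 in members, with a summed level of 96.7 to 211 per 10000 in 1-kidney members and 59.9 to 119 in 2-kidney members. The distal convoluted tubule list, with Pvalb at 0, summed to 24.8 to 36.5 in 1-kidney members and 35.2 to 41.4 in 2-kidney members, and the podocyte list to 3.19 to 4.66 and 3.01 to 4.78.

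Cldn16, Casr and Umod are the genes around which the differences below turn, and the 300 bases from upstream of the annotated start to just after it are shown so that their letters can be set side by side (RefSeq, GRCr8). The Cldn16 window lies at chr11:87814347-87814646 on the minus strand, the Casr window at chr11:77740364-77740663 on the plus strand and the Umod window at chr1:183260967-183261266 on the minus strand. Capitals mark TATAAA, the letters of a TATA box.
Cldn16: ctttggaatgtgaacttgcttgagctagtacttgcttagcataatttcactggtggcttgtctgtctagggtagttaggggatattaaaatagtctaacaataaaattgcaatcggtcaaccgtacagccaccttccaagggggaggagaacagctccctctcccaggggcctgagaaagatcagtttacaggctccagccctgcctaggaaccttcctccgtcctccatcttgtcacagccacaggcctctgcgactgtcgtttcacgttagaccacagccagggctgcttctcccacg
Casr: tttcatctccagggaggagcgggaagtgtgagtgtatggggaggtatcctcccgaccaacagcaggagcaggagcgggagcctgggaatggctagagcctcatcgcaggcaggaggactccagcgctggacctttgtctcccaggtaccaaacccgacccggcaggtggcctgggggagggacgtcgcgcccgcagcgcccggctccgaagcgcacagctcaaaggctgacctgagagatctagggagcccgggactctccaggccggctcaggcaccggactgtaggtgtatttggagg
Umod: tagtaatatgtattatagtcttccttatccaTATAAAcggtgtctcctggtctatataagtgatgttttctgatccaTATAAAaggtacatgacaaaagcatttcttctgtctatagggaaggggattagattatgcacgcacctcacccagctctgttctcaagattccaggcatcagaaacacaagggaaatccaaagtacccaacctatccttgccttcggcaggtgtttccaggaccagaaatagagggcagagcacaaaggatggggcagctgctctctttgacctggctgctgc
Both strands were searched for each motif given here, and the motifs do not overlap each other. TATAAA matched at 2 places in the Umod window and in neither of the others, and 14.2% of 33469 promoters of this length held it. AAGGTCA, a half-site of estrogen-related receptors, is in 4.61% of all promoters and was in none of the 3 windows. Cldn16 and Tmem207 are direct neighbours in this annotation and their annotated spans do not overlap. How reads between neighbouring genes were assigned was not given.

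Library sizes and overlap between libraries bear on all that follows. Members held 28240, 84763 and 68597 UMIs in the 1-kidney libraries and 104579, 225562, 250255 and 399824 UMIs in the 2-kidney libraries, so that 3 UMIs, the limit that a count of 0 allows, equalled 0.354 to 1.06 per 10000 in 1-kidney members and 0.0750 to 0.287 in 2-kidney members. The median member had 1254 to 1739.5 UMIs in 1-kidney libraries and 1687 to 2275 in 2-kidney libraries. Of 30642 different barcode sequences, 104 occurred in more than 1 library, and none of these was a member. Doublet scores marked no member of the 1-kidney libraries and 1, 2, 1 and 4 members of the 2-kidney libraries.

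Members were a smaller share of the nuclei in every 1-kidney library than in any 2-kidney library. They made up 0.933% (Wilson 95% interval 0.611 to 1.42), 0.779% (0.558 to 1.09) and 0.782% (0.557 to 1.10) of passing nuclei in the 1-kidney libraries. In the 2-kidney libraries they made up 1.17% (0.875 to 1.56), 2.24% (1.84 to 2.72), 2.02% (1.69 to 2.41) and 2.58% (2.20 to 3.02). These intervals cover counting error only. The groups did not overlap, with 0.831% ± 0.0885 in 1-kidney libraries against 2.00% ± 0.599 in 2-kidney libraries (SD, n = 3 and 4). The exact two-sided permutation test gave p = 0.0571, the smallest that 3 against 4 libraries can give, so that p under 0.05 could not be reached. In set P1117 alone, 1.70% of nuclei were members on average in the 2-kidney libraries (exact permutation p = 0.2, the smallest that 3 against 2 can give). With Cldn16 at 2 or more UMIs, over all 7 libraries, the groups overlapped. The share was then 0.114% to 0.213% in 1-kidney and 0.208% to 0.760% in 2-kidney libraries (exact permutation p = 0.114). TAL nuclei as a whole overlapped between the groups, at 11.7% ± 3.53 of passing nuclei in 1-kidney libraries and 14.1% ± 3.20 in 2-kidney libraries (exact permutation p = 0.4).

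The share of TAL nuclei with a Cldn16 UMI was 6.14%, 9.55% and 6.59% in the 1-kidney libraries and 9.85%, 11.95%, 16.8% and 18.6% in the 2-kidney libraries. Depth moved with it: the Cldn16-negative TAL nuclei of 1-kidney libraries had a lower median UMI count, 1147 ± 216 against 1503 ± 162 in 2-kidney libraries, also without overlap. With every nucleus thinned to 1000 UMIs, which left out 404 of 1199 TAL nuclei from 1-kidney and 472 of 2790 from 2-kidney libraries, the share was 5.49%, 6.21% and 4.43% against 6.95%, 7.79%, 12.1% and 10.7%. The groups still did not overlap (5.38% ± 0.894 in 1-kidney and 9.39% ± 2.42 in 2-kidney libraries, exact permutation p = 0.0571, the smallest possible). The same 1000 UMIs gave a Cldn16 UMI in 0.506% ± 0.494 of podocytes from 1-kidney libraries and 0.468% ± 0.207 of podocytes from 2-kidney libraries. Without thinning, 0% to 3.16% of podocytes per library had one at median depths of 1676 to 3806.5 UMIs. Of podocytes thinned to 2000 UMIs (207 and 527 nuclei), 0% had one in 1-kidney libraries and 0.970% ± 0.562 in 2-kidney libraries, without overlap (exact permutation p = 0.0571). Unthinned distal convoluted tubule nuclei, chosen as described below, had one in 1.31%, 2.76% and 2.87% in 1-kidney libraries. The 2-kidney shares were 3.44%, 3.01%, 5.01% and 4.66%, at median depths of 1920 to 2545 UMIs against 1350.5 to 1742. At 2000 UMIs, where 83.7% of 1-kidney and 67.8% of 2-kidney TAL nuclei were too shallow to be kept, the shares overlapped (10.6% ± 4.12 in 1-kidney and 15.2% ± 6.25 in 2-kidney libraries, exact permutation p = 0.4). Within set P1117 at this depth the 1-kidney share was higher by 0.674 percentage points (exact permutation p = 0.8). Fewer cells of this type and less Cldn16 RNA per cell cannot be told apart from such shares.

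**Figure D1:**
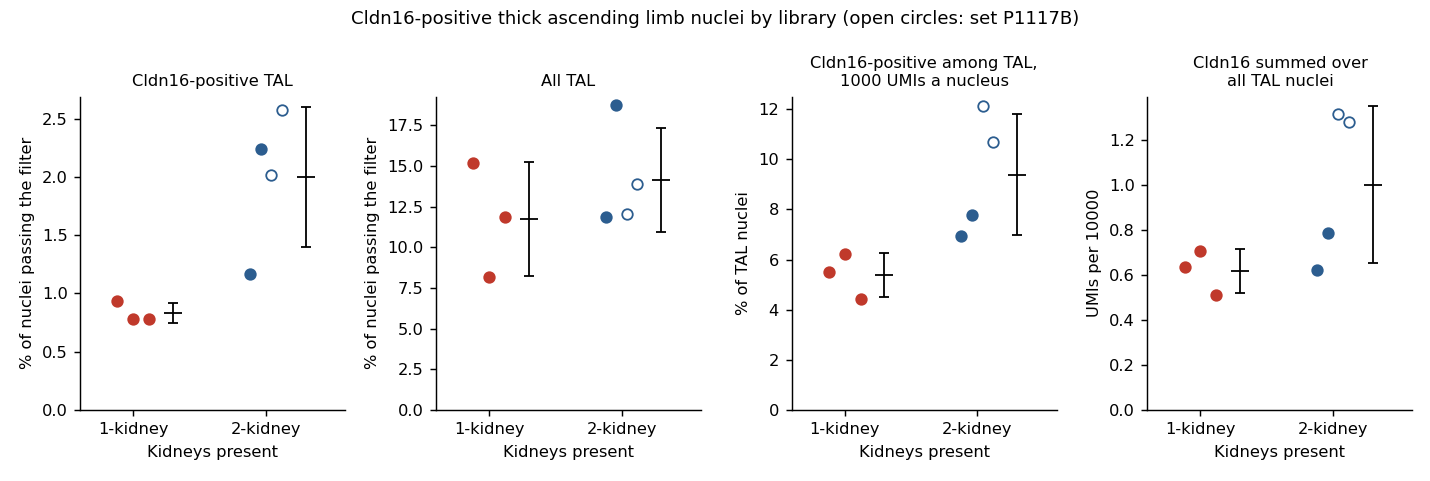
Cldn16-positive nuclei and all TAL nuclei as a percent of passing nuclei, Cldn16-positive nuclei as a percent of TAL nuclei at 1000 UMIs each, and Cldn16 in UMIs per 10000 summed over all TAL nuclei, each point 1 library, with the mean and SD per group (1-kidney n = 3, left; 2-kidney n = 4, right) and open circles for the 2 libraries of set P1117B. The 1-kidney libraries sit at 0.779% to 0.933% of passing nuclei, below all 2-kidney libraries at 1.17% to 2.58%.

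Summed over all passing nuclei, Cldn16 was at 0.11 per 10000 in 1-kidney and 0.19 in 2-kidney libraries without overlap. Over TAL nuclei alone it was 0.62 ± 0.10 per 10000 in 1-kidney libraries and 1.00 ± 0.35 in 2-kidney libraries, which overlapped. These levels are descriptions. A comparison of the groups over all TAL nuclei, added after the data were seen, called no gene by edgeR (0% of 8865 tested, 1098 at an unadjusted p under 0.05). Cldn16, which did not choose these nuclei, was not set aside from that comparison. Without 2-kidney replicate 1, 13 genes passed, without 2-kidney replicate 4, 1, and within set P1117, 6, and Cldn16 was not among them.

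Within the TAL, nuclei with more Cldn16 UMIs had more Tmem207, Casr, Umod and Egf per 10000 UMIs. Nuclei were pooled over the 7 libraries by their Cldn16 UMIs, so these levels describe nuclei and carry counting error only. In nuclei with 0, 1, 2 and at least 3 Cldn16 UMIs (3490, 378, 91 and 30 nuclei), Tmem207, a transmembrane protein gene next to Cldn16, was at 8.998, 18.0, 34.8 and 45.7 per 10000. Casr was at 2.83, 5.54, 9.78 and 13.2 per 10000. Umod was at 7.56, 11.9, 14.5 and 18.7 per 10000, and Egf at 1.19, 1.90, 3.16 and 4.36. Pth1r was at 3.73, 4.39, 4.36 and 3.51 per 10000, with no such order, and Slc12a1, which chose the nuclei, at 150, 146, 149 and 149. Cldn10, the gene of claudin-10b, was at 4.10, 3.60, 1.39 and 1.91 per 10000. Counts per gene do not tell claudin-10b from other products of this gene. Ptger3, a receptor for prostaglandin E2, was at 3.43, 3.17, 2.06 and 1.38 per 10000. Slc34a1, the phosphate cotransporter of the proximal tubule, was at 73.6, 59.4, 38.6 and 22.1 per 10000, and the proximal tubule's part in these levels was not tested. The median UMI count of the nuclei also climbed with Cldn16, at 1377, 1749, 1976 and 3107. Of the 30 nuclei with at least 3 Cldn16 UMIs, 1 came from a 1-kidney library, 5 from 2-kidney replicate 3 and 16 from 2-kidney replicate 4. The mix of libraries was not held equal between these groups of nuclei, and its part in the levels was not tested.

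**Figure D2:**
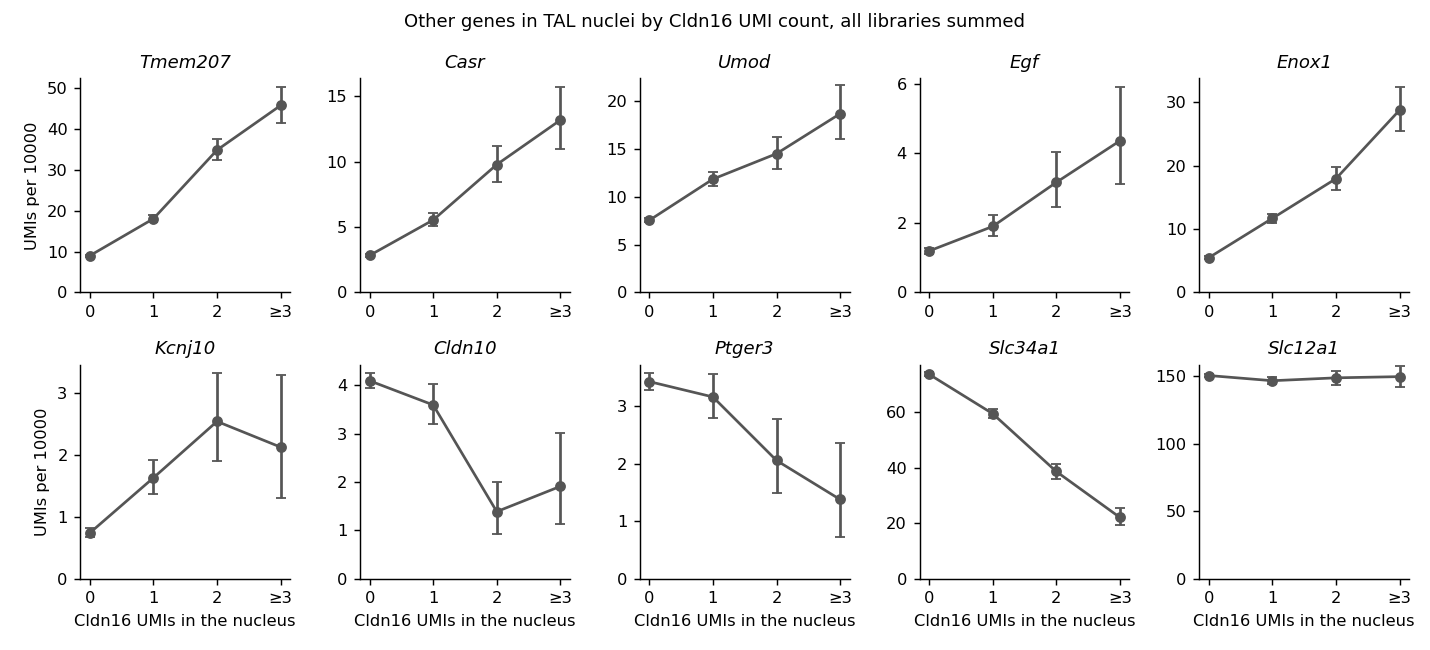
Levels in UMIs per 10000 for TAL nuclei grouped by their number of Cldn16 UMIs (0, 1, 2, at least 3), pooled over 7 libraries, with exact Poisson 95% intervals that cover counting error only. Tmem207 climbs to 45.7 and Casr to 13.2 per 10000 in nuclei with at least 3 Cldn16 UMIs, while Cldn10 is lower with 2 or more.

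Set against the Cldn16-negative TAL nuclei of the same animals, members differed in 134 genes of 6089 tested (edgeR quasi-likelihood test, library as a block, Benjamini-Hochberg adjusted p under 0.05). Members were higher in 85 of these (1.40% of the genes tested) and lower in 49 (0.805%). Cldn16 chose the classes and was not tested, but no other gene here was part of that choice. Median depth was higher in members than in Cldn16-negative nuclei. With every nucleus thinned to 1000 UMIs, 107 of the 134 called genes could still be tested, and 58 kept their call. Apart from Cldn10, calls lost in that fit are not listed by gene. The calls numbered 53 by DESeq2, 29 within set P1117, 65 with every nucleus thinned to 1000 UMIs, and 86, 74 and 78 without 2-kidney replicate 2, 3 and 4.

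The calcium and magnesium genes that moved were all higher in members. Of 30 such genes 19 could be tested, 5 were higher (Casr, Tmem207, Egf, Fxyd2 and Pth1r) and none lower, with a median log2 fold change of 0.11 against -0.004 over all genes tested. Tmem207 was at 34.3, 22.9 and 21.3 per 10000 in members of 1-kidney libraries and 14.1, 23.7, 21.7 and 26.1 in members of 2-kidney libraries, against 15.4, 10.5 and 9.43, and 7.28, 8.45, 8.94 and 8.13, in the Cldn16-negative nuclei of the same libraries. It was higher in members of all 7 libraries (log2 fold change 1.33 ± 0.0682 SE, adjusted p = 1.31e-38). Casr, whose receptor senses calcium, was at 6.02, 8.26 and 3.35 per 10000 in 1-kidney members and 6.41, 5.05, 10.2 and 6.43 in 2-kidney members, and its matched Cldn16-negative nuclei had 3.41, 3.701 and 2.20, and 2.99, 2.12, 4.11 and 2.50. Each library was again higher in its members (log2 fold change 1.22 ± 0.0891, adjusted p = 8.37e-25). Egf, whose product raises magnesium uptake in the next segment, averaged 2.19 ± 0.849 per 10000 in members and 1.32 ± 0.521 in Cldn16-negative nuclei, with members higher in 6 of 7 libraries (log2 fold change 1.01, adjusted p = 3.43e-09). Fxyd2, a regulatory subunit of the sodium pump that is mutated in a magnesium-wasting disorder, averaged 3.90 against 2.82 per 10000 (adjusted p = 3.99e-05). Pth1r, the parathyroid hormone receptor, averaged 4.62 ± 1.76 in members against 3.95 ± 1.48 in Cldn16-negative nuclei (adjusted p = 0.0301, higher in 5 of 7 libraries). Its call was lost in 8 of 17 other settings, among them DESeq2 and leaving out 2-kidney replicate 2, 3 or 4, at adjusted p = 0.0759 to 0.822.

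**Figure D3:**
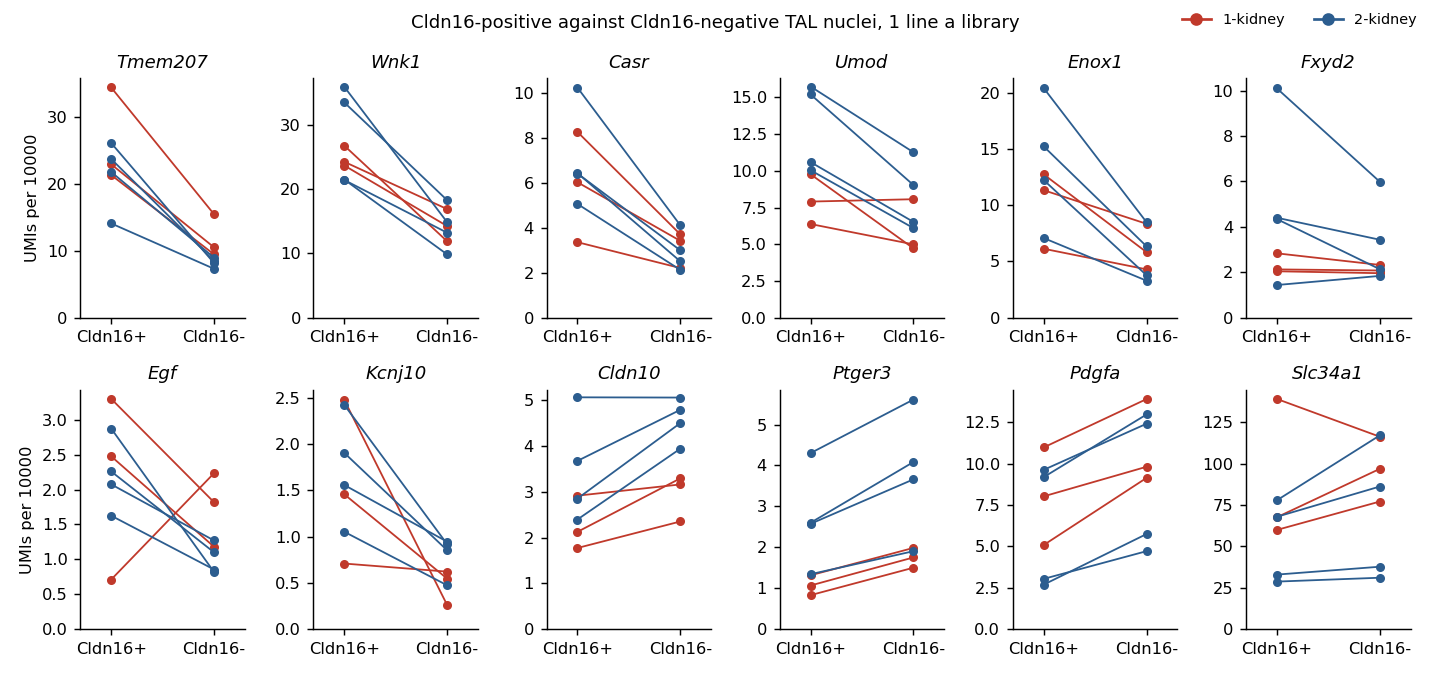
Levels in UMIs per 10000 in Cldn16-positive (left of each pair) and Cldn16-negative (right) TAL nuclei, 1 line per library, coloured by group. Casr and Tmem207 are higher in the Cldn16-positive nuclei of all 7 libraries, and Ptger3 is lower in all 7.

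Cldn10, counted as a gene and not as claudin-10b alone, went the other way. Of 29 claudin and tight junction genes 9 were tested, and Cldn10 was the 1 that passed. Cldn10 was at 1.77, 2.12 and 2.92 per 10000 in 1-kidney members and 5.07, 2.39, 3.68 and 2.85 in 2-kidney members, and at 2.35, 3.29 and 3.16, and 5.06, 3.94, 4.79 and 4.50, in the matched Cldn16-negative nuclei. It was lower in the members of 6 of 7 libraries and level in 2-kidney replicate 1 (log2 fold change -0.42 ± 0.102, adjusted p = 0.00515). The call was lost by DESeq2 (adjusted p = 0.121), within set P1117 (0.598), after thinning (0.155), at the stricter Slc12a1 bound (0.203), and without 2-kidney replicate 2 (0.0759) or 4 (0.187), always in the same direction. The share of nuclei with a Cldn10 UMI, after thinning to 1000 UMIs, was 23.4% ± 8.70 in members, 30.3% ± 5.66 in Cldn16-negative nuclei and 8.63% in podocytes. Paired by library, members were lower in 6 of 7 (exact permutation test, p = 0.0313, n = 7). Without thinning the shares were 38.8% in members and 39.5% in Cldn16-negative nuclei (exact permutation p = 0.688), and at 2000 UMIs the difference was -14.7 percentage points (exact permutation p = 0.0313). The 9 tested claudin and junction genes had a median log2 fold change of -0.07 against -0.004 over all genes.

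Detection after thinning to 1000 UMIs gave the same order for the genes called in levels. Casr was found in 39.4% ± 12.2 of members and 20.8% ± 4.35 of Cldn16-negative nuclei, higher in members of 7 of 7 libraries (exact permutation p = 0.0156, the smallest possible with 7 pairs). Umod was found in 54.6% of members and 41.1% of Cldn16-negative nuclei, also in 7 of 7. Kcnj10, a potassium channel of the blood-side membrane, was found in 13.9% of members and 5.92% of Cldn16-negative nuclei, with 0.505% in podocytes. For Egf the shares were 20.8% and 12.2% (6 of 7, exact permutation p = 0.0469). Ptger3 was found in 15.2% of members and 22.0% of Cldn16-negative nuclei, lower in the members of all 7 libraries (exact permutation p = 0.0156) and at 1.81% in podocytes. For Pth1r the shares were 31.9% of members, 27.7% of Cldn16-negative nuclei and 56.4% of podocytes, so podocytes give no background share for this gene. How much of the Pth1r share in TAL nuclei is their own expression was not tested.

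Among the 26 tested genes of thick ascending limb identity, 7 were higher in members, 3 were lower, and the median was 0.03. Umod averaged 10.8 ± 3.50 per 10000 in members and 7.24 ± 2.36 in Cldn16-negative nuclei (log2 fold change 0.64 ± 0.0771, adjusted p = 3.72e-11, higher in 6 of 7 libraries). Enox1, which encodes a cell-surface oxidase, averaged 12.2 against 5.76 per 10000 (log2 fold change 1.22, higher in 7 of 7). Tmem52b (log2 fold change 1.38), Mecom, a zinc finger transcription factor (0.52), and Ppp1r1a, an inhibitor of protein phosphatase 1 (0.41), were higher too, together with Egf and Tmem207. The lower ones were Ptger3, Irx1, a homeobox gene (-0.96), and Ppp1r1b, another phosphatase inhibitor (-0.60). Ptger3 averaged 2.00 ± 1.23 per 10000 in members and 2.93 ± 1.55 in Cldn16-negative nuclei (log2 fold change -0.48 ± 0.11, adjusted p = 0.00235) and was lower in the members of all 7 libraries. The Ppp1r1a call was lost in 9 of 17 settings and the Ppp1r1b call in 13 of 17, the Irx1 call in 5 of 14 and the Ptger3 call in 4 of 17, while those of Enox1, Tmem207 and Tmem52b were kept in all 17.

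Of the 16 tested genes of salt transport, 3 were higher in members, Kcnj10 and Fxyd2 among them, and 1 was lower, with a median of 0.07. Kcnj10 averaged 1.66 ± 0.664 per 10000 in members and 0.658 ± 0.257 in Cldn16-negative nuclei (log2 fold change 1.21 ± 0.156, adjusted p = 5.87e-10) and was higher in all 7 libraries. Kcnj1, the luminal potassium channel ROMK, averaged 2.67 ± 0.934 per 10000 in members and 2.601 ± 0.386 in Cldn16-negative nuclei, a log2 difference of -0.004 ± 0.113 (adjusted p = 0.996).

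Among genes of the kinase pathway that switches NKCC2 on, Wnk1 differed between the classes, counted as a gene and not by its separate products. Wnk1 was at 23.7, 24.3 and 26.8 per 10000 in 1-kidney members and 33.6, 21.5, 36.0 and 21.5 in 2-kidney members, against 14.3, 16.9 and 11.9, and 18.3, 13.2, 14.9 and 9.85, in the matched Cldn16-negative nuclei. Members were higher in all 7 libraries (log2 fold change 0.96 ± 0.0663, adjusted p = 7.33e-27). Of the 17 tested genes of this pathway, Wnk1, Ppp1r1a and Kcnj10 were higher and Ppp1r1b lower, and the median was 0.01. Of 20 tested hormone receptor and cyclic AMP genes, Casr and Pth1r were higher and Ptger3 lower, with a median of 0.10. Among 23 growth signalling genes Egf was higher, while Pdgfa, a platelet-derived growth factor, and Igf1 were lower (median -0.10). Pdgfa averaged 6.94 per 10000 in members and 9.81 in Cldn16-negative nuclei and was lower in members of all 7 libraries (log2 fold change -0.55, adjusted p = 1.39e-07).

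No gene passed among 24 of mitochondrial and energy metabolism, 15 of the unfolded protein response, 9 of the glucocorticoid response, 7 of cholesterol synthesis and 6 of tubular injury. Outside the lists, the largest rises among genes with a mean of at least 50 CPM in either class included those of Syt1, a vesicle calcium sensor (log2 fold change 1.38), Cwh43 (1.26), Cemip, a hyaluronan-binding protein (1.21), Fut9, a fucosyltransferase (1.20), Galnt13, a glycosyltransferase (1.20), and Stox1 (1.18). The largest falls outside the lists included Heg1, Gfod1, Medag, Fli1, Map3k21, Mctp1, Slco2a1, a prostaglandin transporter (-0.91), and Slc4a10, a sodium bicarbonate transporter (-0.96). Many of these calls depended on the setting: that of Fli1 was lost in 11 of 15, of Mctp1 in 9 of 15, of Heg1 in 7 of 15, of Medag in 5 of 14 and of Gfod1 in 4 of 15.

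Among markers of other cell types, 7 calls were of genes lower in members and 1 was of a gene higher. Of 19 proximal tubule markers tested, 2 were lower in members (Slc34a1 and Slc5a2) and 17 of the 19 had a log2 fold change below 0, with a median of -0.22. Slc34a1 averaged 67.6 ± 36.5 per 10000 in members and 80.2 ± 34.7 in Cldn16-negative nuclei (log2 fold change -0.24, adjusted p = 0.00647, lower in members of 6 of 7 libraries), a call lost in 6 of 17 settings, and the Slc5a2 call was lost in 10 of 17. The summed proximal level was 59.9 to 211 in members and 64.2 to 177 in Cldn16-negative nuclei over the 7 libraries. Of 4 podocyte markers tested Ptpro and Plce1 were lower, with the call lost in 1 and 12 of 17 settings. Among 4 cycling markers Cenpf was lower, with 24 UMIs in members and 498 in Cldn16-negative nuclei (log2 fold change -1.66). Robo2 was lower among 3 macula densa markers (call lost in 9 of 17), and 1 of 2 thin limb markers was lower. Slc4a1, the chloride-bicarbonate exchanger of intercalated cells, was higher (log2 fold change 0.45, adjusted p = 0.044), a call lost in 10 of 16 settings, and 3 of the 4 intercalated markers tested were above 0 (median 0.35). No marker passed among 7 of the distal convoluted tubule, 3 of the connecting tubule, 6 of endothelium, 2 of immune cells, 2 of principal cells and 1 of mural cells. When nuclei with Slc34a1 at 100 per 10000 or more were removed, 137 genes were called, and Casr, Tmem207, Umod, Kcnj10, Wnk1 and Enox1 kept their calls.

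The distal convoluted tubule, the segment that follows, takes up salt through Slc12a3 and magnesium through the channel Trpm6 within the cell. It was represented by 3110 nuclei with Slc12a3 at 20 per 10000 or more, at least 3 UMIs of it and Slc12a1 under 80. Against these, 611 genes of 6941 tested were higher in members (8.80%) and 751 were lower (10.8%) by edgeR with library as a block. The nuclei chosen this way carried proximal RNA: Slc34a1 was at 70 to 253 per 10000 in them, the proximal list summed to 128 to 349 against 59.9 to 211 in members, and 18 of 19 proximal markers were called lower in members. A stricter choice added after the data were seen (Slc12a3 at 80 or more and Slc34a1 under 100 per 10000) called 499 genes of 4826 higher (10.3%) and 454 lower (9.41%). Of the 1121 genes called in the first comparison and tested in both, 281 changed sign, and of 17 proximal markers other than Slc34a1, which the stricter choice used, 5 were then higher in members and none lower. Named genes are therefore given with both values.

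Tmem207 was at 14.1 to 34.3 per 10000 in members and 0.772 to 1.86 in distal convoluted tubule nuclei, without overlap among the 7 libraries (log2 fold change 4.03 ± 0.0928, 3.95 in the stricter choice). Umod averaged 10.8 ± 3.50 in members against 0.962 ± 0.210 (log2 fold change 3.51, stricter 3.59), and Casr 6.54 ± 2.21 against 0.619 ± 0.211 (3.38, stricter 3.07). Enox1 differed by 3.35 on the log2 scale (stricter 3.03). Trpm6, the magnesium channel, averaged 0.805 ± 0.401 per 10000 in members and 6.65 ± 1.18 in distal convoluted tubule nuclei (log2 fold change -3.23 ± 0.148, stricter -3.95). Calb1, the calcium-buffering protein calbindin, averaged 0.455 ± 0.261 in members against 4.88 ± 0.832 (-3.16, stricter -3.58). Slc8a1, the sodium-calcium exchanger, averaged 7.95 ± 3.66 in members against 60.9 ± 18.3 (-2.91, stricter -3.37). Wnk1, though higher in members than in Cldn16-negative nuclei, was lower here, at 26.8 ± 5.81 in members against 49.4 ± 4.86 (-0.91, stricter -1.67).

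Other thick ascending limb genes with a wide gap in the first comparison were Agbl1 (log2 fold change 3.60, stricter 3.77), Gp2, a relative of uromodulin (3.49, stricter 3.57), and the transcription factor Sim2 (3.41, stricter 4.06). Lhx1 and Emx1, homeobox genes, and the protocadherin Pcdh7 were lower in members, with log2 fold changes of -3.89, -3.02 and -4.71 (stricter -4.68, -3.53 and -5.29), and Pcdh7 had 3 UMIs in all members. Of 25 tested thick ascending limb identity genes 14 were higher and 2 lower (median 0.50 against 0.002 over all genes tested). In the stricter choice 9 of 23 were higher and 3 lower (median 0.14 against -0.01), and 8 were called higher in both. Of 20 calcium and magnesium genes, 4 were higher and 10 lower (median -0.29). In the stricter choice 3 of 19 were higher and 10 lower (median -0.56), and 2 were called higher and 9 lower in both. Ephb2, an ephrin receptor, was higher in members (2.38, stricter 2.52), and so was Ptger3 (1.66, stricter 1.23). Cldn10 was higher in members by 0.41 in the first comparison and by 1.55 in the stricter one. Kcnj1, Kcnj10 and Pth1r had opposite signs in the 2 choices: 0.53, 0.44 and -0.27 in the first and -0.17, -0.36 and 0.71 in the stricter one.

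**Figure D4:**
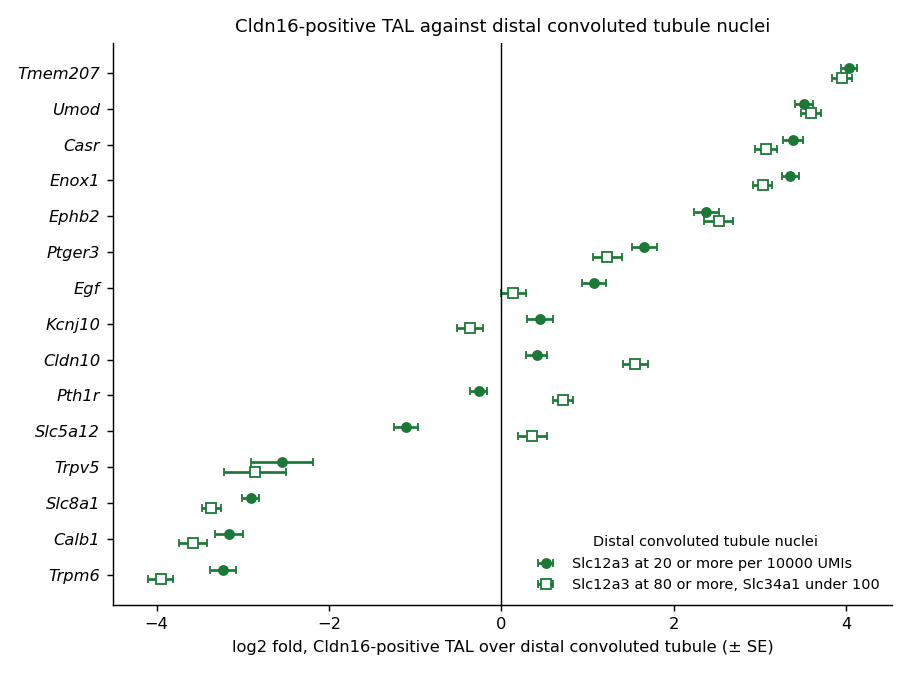
Log2 fold changes with their SE for named genes, Cldn16-positive TAL against distal convoluted tubule nuclei (edgeR, 7 libraries, library as a block). Filled circles stand for the first choice of distal convoluted tubule nuclei and open squares for the stricter one. In the first, Tmem207 lies at 4.03, Umod at 3.51 and Casr at 3.38, while Trpm6 lies at -3.23, Calb1 at -3.16 and Slc8a1 at -2.91, while Pth1r and Kcnj10 lie on opposite sides of 0 in the 2 choices.

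The design's own question was whether members of rats with 1 kidney differ from those of rats with 2 kidneys. Of 2559 genes tested, 1 passed (0.0391%), by edgeR and also by DESeq2, and 313 had an unadjusted p under 0.05, 156 of them higher in 1-kidney members. The gene was G6pc, the catalytic subunit of glucose-6-phosphatase, an enzyme of glucose release that proximal tubule cells make. G6pc was at 1.06, 3.54 and 2.19 per 10000 in 1-kidney members (48 UMIs in all) and at 0.669, 0.399, 0.519 and 0.400 in 2-kidney members (45 UMIs). The groups did not overlap (log2 fold change 2.43 ± 0.395, adjusted p = 0.0155). The call was lost without 1-kidney replicate 2 (adjusted p = 0.511) or 3 (0.101) and without 2-kidney replicate 3 (0.0577), while leaving out 2-kidney replicate 4 gave 3 calls. Too few G6pc UMIs remained to test it under the stricter bounds or after thinning. G6pc was also higher without overlap outside the members: 0.97 ± 0.23 per 10000 in podocytes of 1-kidney libraries against 0.27 ± 0.19 in those of 2-kidney libraries, and 2.17 ± 0.20 against 0.85 ± 0.44 in Cldn16-negative TAL nuclei.

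Proximal tubule genes as a list lay above the rest in 1-kidney members. Of the 16 tested, all had a log2 fold change above 0, with a median of 0.69 against 0.009 over all genes tested. G6pc was the 1 that passed. Within set P1117 alone 14 of 15 were above 0 with a median of 0.51, and in Cldn16-negative nuclei 17 of 19 with a median of 0.25. The summed level of the list, given above, ran higher in 1-kidney members, with overlap. Slc34a1 was at 59.8, 139 and 67.5 per 10000 in 1-kidney members and 77.7, 67.8, 32.8 and 28.6 in 2-kidney members. Slc4a4, a sodium bicarbonate cotransporter, was at 8.51 ± 2.05 in 1-kidney members and 4.20 ± 0.819 in 2-kidney members, with a log2 fold change of 1.05 and an adjusted p of 0.252, and it passed with the library set as a term (1.25, adjusted p = 0.0309). Slc13a1, a sulfate transporter, was at 6.84 ± 2.67 against 3.18 ± 0.724 (1.16, adjusted p = 0.252), and Slc5a12, a lactate transporter, at 2.35 ± 0.944 against 1.08 ± 0.340 (1.25, adjusted p = 0.252). The part that RNA of proximal cells has in these differences was not tested.

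Genes with the smallest p among those lower in 1-kidney members had adjusted p of 0.245 and above. Sema6d, an axon guidance semaphorin, was at 0.354, 0.236 and 0.292 per 10000 in 1-kidney members, 5 UMIs in all, and at 1.43, 1.15, 1.68 and 1.38 in 2-kidney members (138 UMIs, log2 fold change -2.30 ± 0.501, adjusted p = 0.245). Ocln, the gene of the tight junction protein occludin, was at 0, 0.944 and 0.729 per 10000 in 1-kidney members and 2.39, 1.68, 2.36 and 2.55 in 2-kidney members (-1.65 ± 0.413, adjusted p = 0.252). Neither gene overlapped between the groups, as was so for 304 of the 2559 genes tested (11.9%). Slit2, a guidance ligand, averaged 6.06 ± 1.64 against 12.7 ± 4.55 (-1.01, adjusted p = 0.252). Lrch1, Marchf3, Sgpp2, Efna5, Rcan2, Gab1, Fam149a and Kctd1 followed with log2 fold changes between -0.98 and -2.37. Among the higher ones, Col27a1, a fibrillar collagen, averaged 2.63 ± 1.71 in 1-kidney members and 0.602 ± 0.453 in 2-kidney members (2.13 ± 0.576, adjusted p = 0.252). It was also higher without overlap in Cldn16-negative nuclei (2.86 against 0.53) and in podocytes (2.36 against 0.73). Hadha, an enzyme of fatty acid oxidation, averaged 3.25 ± 1.14 against 1.44 ± 0.138 (1.09, adjusted p = 0.252).

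Of the thick ascending limb genes named above, none passed between the groups. Casr was at 5.88 ± 2.46 per 10000 in 1-kidney members and 7.03 ± 2.23 in 2-kidney members (log2 fold change -0.22 ± 0.318, adjusted p = 0.817), with a sign that turned in 5 of the other settings and when 1 library was left out. Tmem207 was at 26.2 ± 7.13 against 21.4 ± 5.19 (0.29 ± 0.261, adjusted p = 0.676). Umod was at 6.37, 7.90 and 9.77 in 1-kidney members and 10.0, 10.6, 15.7 and 15.2 in 2-kidney members, which did not overlap, with a log2 fold change of -0.65 ± 0.261 and an adjusted p of 0.321. Ptger3 was at 1.06, 0.826 and 1.31 in 1-kidney members against 1.34, 2.57, 2.597 and 4.30 in 2-kidney members, also without overlap (-1.40 ± 0.416, adjusted p = 0.252). Ephb2 averaged 1.47 ± 0.413 against 3.20 ± 0.605 (-1.02, adjusted p = 0.268). Cldn10 averaged 2.27 ± 0.586 against 3.50 ± 1.17 (-0.52 ± 0.327, adjusted p = 0.547). Kcnj10, Pth1r, Egf and Kcnj1 had log2 fold changes of -0.44, -0.16, 0.15 and -0.11, each with an adjusted p of 0.682 or above.

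By list, 14 of 19 thick ascending limb identity genes had a log2 fold change below 0 in 1-kidney members (median -0.51), and Pax2 and Tfap2b, transcription factors of kidney tubules, were among the smallest p, at -1.36 and -1.20 with adjusted p of 0.252 and 0.268. Within set P1117 alone the median of the identity list was -0.25, and in Cldn16-negative nuclei 11 of 28 were above 0 with a median of -0.07. Of 13 calcium and magnesium genes 6 were above 0 (median -0.16), and Cnnm2, a magnesium transport protein of the blood side, averaged 0.939 ± 0.229 against 2.05 ± 0.288 (-1.02, adjusted p = 0.292). Of 6 claudin and junction genes 1 was above 0 (median -0.31), of 12 salt transport genes 3 (median -0.18), of 12 kinase pathway genes 3 (median -0.24), of 16 hormone receptor genes 6 (median -0.20) and of 15 growth signalling genes 6 (median -0.26). No gene of these lists passed.

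**Figure D5:**
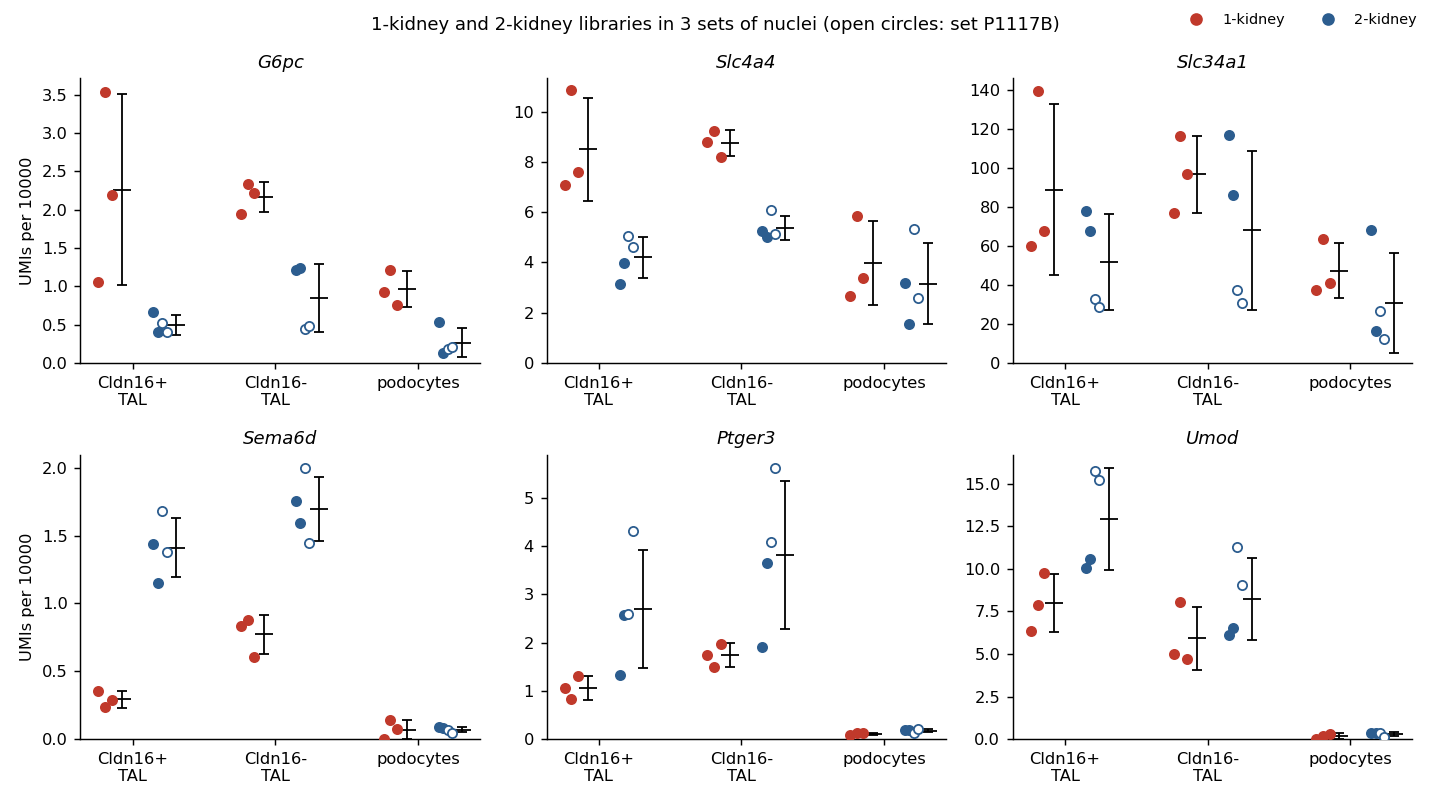
Levels in UMIs per 10000 of G6pc, Slc4a4, Slc34a1, Sema6d, Ptger3 and Umod in Cldn16-positive TAL, Cldn16-negative TAL and podocyte nuclei of the 1-kidney (left, n = 3) and 2-kidney (right, n = 4) libraries, with mean and SD, and open circles for set P1117B. G6pc lies at 1.06 to 3.54 in 1-kidney members and 0.399 to 0.669 in 2-kidney members and is also higher in the other 2 kinds of nuclei of 1-kidney libraries.

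Whether the effect of having 1 kidney differed between members and Cldn16-negative nuclei was tested directly. No gene passed among 7268 tested (0%), by edgeR (smallest adjusted p 0.144, 400 genes at an unadjusted p under 0.05) or by DESeq2 (181 genes at an unadjusted p under 0.05). Of the 400 by edgeR, 104 had a difference above 0 and 296 below, and the median over all genes tested was -0.08. The smallest p belonged to Slc4a1, with a log2 difference of -1.37 ± 0.334, Enox1 (-0.66 ± 0.165), Prkd1, a protein kinase D gene (-0.60 ± 0.15), Fam149a (-2.36, adjusted p = 0.285) and Slc38a1, an amino acid transporter (-0.94, adjusted p = 0.413). Prkd1 averaged 12.3 ± 0.21 per 10000 in 1-kidney members and 22.5 ± 6.11 in 2-kidney members, against 11.2 ± 1.52 and 14.5 ± 3.19 in the Cldn16-negative nuclei. Enox1 averaged 10.1 ± 3.49 in 1-kidney members and 13.7 ± 5.58 in 2-kidney members, and 6.15 ± 2.05 and 5.47 ± 2.42 in the Cldn16-negative nuclei. Leaving out 1-kidney replicate 2 gave 2 calls and leaving out 1-kidney replicate 3 gave 1. Tmem207 in the Cldn16-negative nuclei averaged 11.8 ± 3.20 in 1-kidney and 8.20 ± 0.70 in 2-kidney libraries without overlap (log2 fold change 0.55, adjusted p = 0.360), where its members overlapped, and the difference between the 2 effects was -0.33 on the log2 scale.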

How the data were processed

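The authors deposited UMI counts per gene and barcode as 1 matrix per library (10x 3' v3.1 chemistry per the labels' protocols, Cell Ranger 7.0 per the submitters' processing notes). The sources used here do not name the genome build, the annotation or how reads shared by neighbouring or duplicated genes were handled. The deposited counts were filtered and nuclei chosen as described, and UMIs were summed per library and class, so that libraries are the replicates. Levels are UMIs per 10000, with no length scaling. Sums were tested with edgeR 4.0.16 in R 4.3.3 (quasi-likelihood, TMM, filterByExpr, two-sided, Benjamini-Hochberg), with library as a block where both classes come from the same libraries, and DESeq2 1.42.0 as an alternative. Exact permutation tests used scipy 1.17.1, and doublet scores used scanpy 1.11.5. The fitting code was tested on simulated data. Nothing in the sources used here says whether a library is 1 animal, and if not, p-values measure the spread between these samples.

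Members, gene lists and tests were chosen with earlier results of these data known. Genes were named by rule: the 12 of smallest p in each direction between groups, the 12 largest folds in each direction at 50 CPM or more in the class comparisons, the 5 of smallest p for the difference of effects, a set of thick ascending limb genes, and list members that passed. Foxi1, Fkbp5, Zbtb16 and Cldn16 levels outside members, and the stricter distal convoluted tubule choice, were added after the data were seen. Some genes that came under the rule are not reported here. Promoter windows matched by symbol for all 3 genes sought.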

Additional observations from a re-analysis of the deposited data

Results flagged for a closer look

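Of 39 results tested for a library standing apart from the other 3 of the 2-kidney group, 2 were so marked, where chance marks about 1 group in 20. Both came from 2-kidney replicate 3. Its members had Hadha at 1.24 per 10000 UMIs, below 1.501 to 1.53 in the other 2-kidney libraries, with a gap of 0.899 of the group's range (the 95% critical value of Dixon's test was passed). Its Slit2 level was 19.5 per 10000, above 9.56 to 11.04 in the others, with a gap of 0.851 of the range.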

How the results depend on the processing

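No paired analysis between the 1-kidney and 2-kidney groups was possible because replicate numbers came from accession order and pair no animals across the groups. Between 1-kidney and 2-kidney members, the 1 call became 12 with no filter on low counts, 5 within set P1117, 6 with the set as a term and 0 with Cldn16 at 2 or more UMIs, with Slc12a1 at 160 or more per 10000, with at most 5000 UMIs per nucleus, with Slc34a1 under 100 or after thinning to 1000 UMIs, and 0 to 3 with 1 library left out. In the settings with 0 calls other than a left-out library, G6pc fell under the filter on low counts and was not tested. Members against Cldn16-negative nuclei gave 134 calls, and 53 by DESeq2, 29 within P1117, 72 with 2 or more Cldn16 UMIs, 29 at the stricter Slc12a1 bound, 206 at the lower UMI bound, 65 after thinning and 74 to 155 with 1 library left out. Against the distal convoluted tubule the 1362 calls became 794 within P1117 and 1094 to 1368 with 1 library left out. The difference of effects gave 0 calls, and 1 with 2 or more Cldn16 UMIs, 3 at the stricter Slc12a1 bound, 1 at the lower UMI bound, 2 with Slc34a1 under 100 and 0 to 2 with 1 library left out. The cause of these moves was not tested, beyond the fewer nuclei that the stricter bounds, P1117 and thinning leave.

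The differences in share kept their sign in the settings run, apart from 0.674 at 2000 UMIs within P1117, and ran from -1.45 to -0.978 percentage points for members among passing nuclei with 1 library left out and from -4.82 to -3.10 for the thinned share of TAL nuclei. The groups overlapped in the share of passing nuclei with Cldn16 at 2 or more UMIs, and in the share of TAL nuclei at 2000 UMIs. Cldn10 detection, lower by -6.91 points in members, differed by -0.754 without thinning, by -6.84 within P1117 and by -8.41 to -5.64 with 1 library left out, and lost its call in 6 of those 7 runs, where 6 pairs allow no lower p than 0.0313.

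Some genes turned sign. Between groups, Tmem207 was at -0.42 with 2 or more Cldn16 UMIs, Egf at -0.030 with no filter, and Casr at 0.26 at the stricter Slc12a1 bound, 0.016 with Slc34a1 under 100, 0.059 with the set as a term, 0.044 within P1117 and 0.032 after thinning. With 1 library left out the ranges were -0.70 to 0.063 for Casr, -0.70 to 0.081 for Pth1r, -0.29 to 0.39 for Egf and -0.30 to 0.22 for Kcnj1. Between members and Cldn16-negative nuclei, Sema6d was at 0.013 at the stricter Slc12a1 bound, Pdk4 at -0.090 with no filter, Fgfr2 at -0.034 by DESeq2, -0.0050 with Slc34a1 under 100 and -0.063 with no filter, Slc4a1 at -1.43 with 2 or more Cldn16 UMIs, and Kcnj1 at 0.10 with 2 or more Cldn16 UMIs, 0.00079 with RLE factors, 0.010 at the lower UMI bound, 0.18 within P1117 and 0.0080 after thinning. Ranges with 1 library left out were -0.045 to 0.37 for Kcnj16, -0.033 to 0.14 for Pdk4, -0.16 to 0.20 for Fgfr2 and -0.14 to 0.085 for Kcnj1. Against the stricter distal convoluted tubule choice, 87 genes were called in both choices with opposite signs, Slc5a12 was at 0.36 (first choice -1.11), Kcnj1 at -0.17, Kcnj10 at -0.36 and Pth1r at 0.71, and Pdk4 ran from -0.23 to 0.29 with 1 library left out. The difference of effects for Slc4a1 was 0.13 with 2 or more Cldn16 UMIs, 0.86 at the stricter Slc12a1 bound and -2.21 to 0.038 with 1 library left out. Depth limits the 1-kidney members most, since they numbered 21, 34 and 33 nuclei.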

Other observations

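Glucocorticoid response genes had larger values within set P1117 than over all libraries. Within set P1117, all 5 tested genes of this list had a log2 fold change above 0 in 1-kidney over 2-kidney members, with a median of 1.45, against 0.31 over all 7 libraries. Fkbp5, a glucocorticoid-induced co-chaperone, was at 4.50 ± 0.55 per 10000 in 1-kidney members and at 0.287, 1.55, 1.76 and 5.03 in 2-kidney members. Zbtb16, a zinc finger gene induced by the same hormones, was at 7.49 ± 0.592 in 1-kidney members and 0.191, 2.22, 6.35 and 14.7 in 2-kidney members. The highest 2-kidney value of each gene was that of replicate 4, which is outside set P1117. Neither pattern was confined to members. In Cldn16-negative TAL nuclei Fkbp5 averaged 4.05 per 10000 in 1-kidney libraries and ran from 0.367 to 3.98 in 2-kidney libraries. Zbtb16 averaged 6.89 there, against 0.367 to 13.6. In distal convoluted tubule nuclei the values were 3.795 against 0.407 to 3.33 for Fkbp5, and 3.93 against 0.261 to 5.91 for Zbtb16. Replicate 4 was again the highest 2-kidney library in each case. These 2 genes and Slc4a1 were picked after their values were seen, because they passed with the set as a term.

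Slc4a1 was at 2.12, 1.298 and 0.583 per 10000 in 1-kidney members and 7.46, 4.48, 3.08 and 0.850 in 2-kidney members. Foxi1, a factor that defines intercalated cells, had 0 UMIs in all 1-kidney members and 0, 2, 1 and 0 UMIs in 2-kidney members. A count of 0 allows 0.354 to 1.06 per 10000 in 1-kidney members, above the 2-kidney mean of 0.0322, so these counts cannot tell the groups apart. In Cldn16-negative nuclei Foxi1 averaged 0.0372 ± 0.0439 in 1-kidney and 0.0160 ± 0.0167 in 2-kidney libraries. The intercalated list, with no gene at 0 over all members, summed to 2.04 to 3.54 in 1-kidney and 2.38 to 9.47 in 2-kidney members.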
